A study of Mus musculus with 20 samples.

Results

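The change in translational efficiency was measured in mouse liver at day 13 of Eif3m silencing, as the ribosome footprint to RNA ratio of each animal. Of the 20 libraries of the series, 8 were from day 13: RNA and footprints of 2 animals given Eif3m siRNA, and RNA and footprints of 2 animals given a control siRNA with a scrambled luciferase sequence. All were FVB/N mice aged 6 to 8 weeks, and both siRNAs came in lipid nanoparticles by tail vein at 0.5 mg/kg, with 1 injection per 5 days. The controls therefore carried the nanoparticle and an siRNA too. RNA was taken from whole ground liver, so fewer cells of a type and less RNA per cell cannot be told apart. A gene entered when its mean over the 4 day 13 libraries of an assay was at least 5 CPM (counts scaled to the library size) in both assays, which 6241 of 38784 gene symbols met. Of the rest, 2396 missed the limit in RNA only, 1401 in footprints only and 28746 in both. Genes next to the limit were Cyhr1 (RNA mean 5.001 CPM) just inside and Per2 (RNA mean 4.997 CPM) just outside.

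The initiation factor eIF3 is a complex of many subunits that binds the small ribosomal subunit and helps bring it to mRNA. Its m subunit, encoded by Eif3m, belongs to the octamer core of the mammalian complex. Each translating ribosome shields a short piece of its mRNA from nuclease, and these pieces are sequenced as footprints. Footprints per RNA report how densely a message is occupied by ribosomes relative to other messages in the same library. A log2 change of efficiency is the footprint change minus the RNA change, and because both assays are scaled within themselves it says nothing about the total rate of protein synthesis. The liver makes most plasma proteins, and its hepatocytes share the tissue with endothelial, Kupffer and stellate cells.

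Eif3m itself was strongly lower in both assays. Its RNA was 18.0 and 14.5 CPM in the Eif3m siRNA livers, against 203 and 298 CPM in control livers, and its footprints were 5.6 and 2.44 CPM in Eif3m siRNA livers, against 74.7 and 77.3 CPM in control livers. The log2 changes were -3.93 in RNA and -4.58 in footprints (edgeR, adjusted p = 3.3e-17 and 1.4e-06). Its footprint to RNA ratio was 0.330 and 0.196 in Eif3m siRNA livers and 0.369 and 0.260 in control livers, which overlap, and its efficiency change of -0.51 (SE 0.41) did not pass the test. All 6 hepatocyte markers were present in every library, summing to 188769 and 142868 CPM of RNA with Eif3m siRNA and 252869 and 231094 CPM in controls. Albumin made up most of these sums, with 160084 and 116850 CPM with Eif3m siRNA and 232376 and 208384 CPM in controls. Without albumin, the rest of the sum was higher in both Eif3m siRNA livers than in both controls. Library totals were 19.8 and 4.96 M counts for Eif3m RNA, 26.4 and 24.3 M for control RNA, 1.64 and 6.52 M for Eif3m footprints and 1.97 and 2.12 M for control footprints.

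At day 13, many genes were called in the same direction in RNA and footprints with Eif3m siRNA, and few were called in the ratio between them. In RNA, 446 genes rose (7.15% of those tested) and 453 fell (7.26%), and in footprints 717 rose (11.5%) and 756 fell (12.1%), with edgeR's quasi-likelihood test at a Benjamini-Hochberg adjusted p below 0.05. The 618 genes that changed the same way in both were 68.7% of the RNA calls and 42.0% of the footprint calls. Calls in opposite directions were made for 2 genes, Pabpc1 among them. In efficiency 4 genes rose (0.0641%) and 11 fell (0.176%), and 178 were past 2-fold, against 603 in RNA and 582 in footprints. At an unadjusted p below 0.05, 272 (4.36%) were higher and 247 (3.96%) lower. The median efficiency change of all tested genes was 0.01, and 73.2% of the genes called in RNA had an efficiency change under 0.5 in size on the log2 scale. Genes called higher in RNA had a median efficiency change of -0.21 and those called lower one of 0.25, and the same RNA values enter both measures. The median SE was 0.35 for efficiency, 0.27 for RNA and 0.21 for footprints. With that larger SE and 2 animals per group, few calls in efficiency do not show that few ratios changed.

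**Figure D1:**
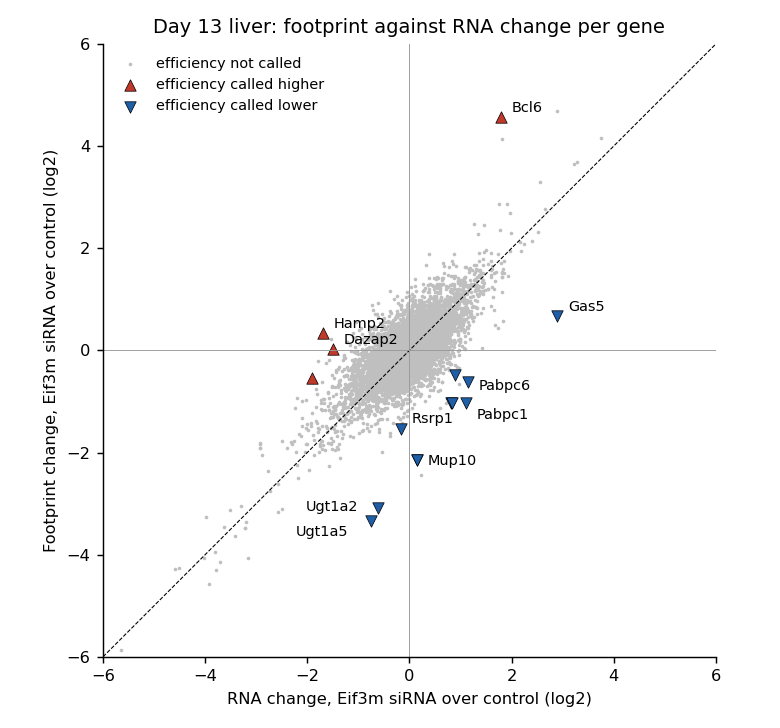
Footprint change against RNA change of each of the 6241 tested genes at day 13, Eif3m siRNA over control, both log2. The dashed diagonal marks equal change in both assays; most genes lie along it, the 4 genes called higher in efficiency (upward triangles) lie above it and the 11 called lower (downward triangles) below it, with Gas5 far to the right and Bcl6 far up.

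These counts depended on single animals and on scaling. Without control replicate 2, 260 genes rose and 156 fell in efficiency, without control replicate 1 it was 15 and 28, without Eif3m replicate 1 it was 9 and 5, and without Eif3m replicate 2 it was 1 and 2. RNA calls numbered 1737 without control replicate 2, 370 without Eif3m replicate 1 and 248 without Eif3m replicate 2, and footprint calls 616 without Eif3m replicate 2. Scaling by library totals alone moved the median efficiency change of all genes to 0.19 and gave 44 rises and 13 falls in efficiency. The same scaling gave 573 rises and 339 falls in RNA and 1751 rises and 344 falls in footprints, with medians of 0.12 and 0.31, so changes below are relative to the median gene.

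RNA and footprints of Pabpc1 moved in opposite directions. Pabpc1 encodes the cytoplasmic poly(A)-binding protein, which coats mRNA tails and aids initiation. Its RNA was 1321 and 1121 CPM in Eif3m siRNA livers, against 574 and 561 CPM in control livers. Its footprints were 90.2 and 85 CPM with Eif3m siRNA, against 127 and 230 CPM in controls. Both Eif3m RNA values lay above both control values and both Eif3m footprint values below them, so the groups separated in opposite directions. The ratio was 0.0686 and 0.0762 in Eif3m siRNA livers and 0.221 and 0.411 in control livers, with no overlap. RNA rose by 1.11 (adjusted p = 0.00107), footprints fell by 1.03 (adjusted p = 0.0131) and efficiency fell by 2.07 on the log2 scale (SE 0.30, adjusted p = 2.72e-05). Efficiency of Pabpc1 stayed called in all 14 alternative analyses and without each of the 4 animals, at log2 changes from -2.51 to -1.61 without an animal. Without a single library, where libraries were no longer paired by animal, it lost the call in 6 of 8 fits (changes from -2.50 to -1.64, adjusted p from 0.0920 to 0.315 in those 6): it passed only without control footprint replicate 1 or control RNA replicate 2. Pabpc6, a close copy of Pabpc1, was also called (-1.81, adjusted p = 0.0425), though not without Eif3m replicate 1 (-1.48), Eif3m replicate 2 (-2.32) or control replicate 2 (-1.54). However, 87.5% of its library values were not whole numbers, as were 100% of those of Pabpc1, so its reads may be divided with Pabpc1 and its value is uncertain.

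Gas5 is a noncoding RNA that hosts small nucleolar RNAs in its introns; its spliced form is known to be engaged by ribosomes and degraded through nonsense-mediated decay. Its RNA was 156 and 167 CPM in Eif3m siRNA livers, against 17.4 and 25.8 CPM in control livers. Its footprints were 73.9 and 63.6 CPM with Eif3m siRNA and 41.9 and 43.3 CPM in controls. Both assays separated the groups upwards, RNA by 2.90 (adjusted p = 1.45e-12) and footprints by 0.67 (adjusted p = 0.0137) on the log2 scale. The ratio was 0.477 and 0.384 in Eif3m siRNA livers and 2.37 and 1.66 in control livers, and efficiency fell by 2.24 (SE 0.32, adjusted p = 2.72e-05), as it did in all 14 alternatives and without each animal. Without a single library and with no pairing, it lost the call in 5 of 8 fits (changes from -2.54 to -1.96, adjusted p from 0.0622 to 0.264 in those 5): without either control footprint library, Eif3m footprint replicate 2 or either Eif3m RNA library. Of the list of snoRNA host genes, 21 were in the table and 4 were tested; Gas5 was the only call, and Snhg1, another host chosen after its values were seen, had RNA higher by 3.22 and footprints higher by 3.64 (both called) and an efficiency change of 0.51 that did not pass (adjusted p = 0.892). RNA was called higher for 3 of the 4.

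Gas5 and ribosomal protein messages are known to begin with a 5′ terminal oligopyrimidine (TOP) run, a C followed by C or T only, through which mTOR controls their translation. The first 20 bases from annotated starts are shown for Gas5 and for 4 ribosomal protein genes, because they share such a start and differ in how ribosome density moved. The 4 ribosomal protein genes were taken for having the longest runs among those tested with a sequence, not for their values; capitals mark the unbroken run of C and T from the first base. They are RefSeq sequences on GRCm38.p6, 5′ to 3′ on the gene's strand; the start shown for Gas5 is 1 of 2 annotated.
Gas5 (chr1:161035166-161035185, plus strand): CTTTCggagctgtgcggcat
Rpl15 (chr14:18270967-18270986, minus strand): CTTCCTTTCCTCTggcggca
Rpl35 (chr2:39005112-39005131, minus strand): CTCTTTCTCTCgaaccaggc
Rps10 (chr17:27635225-27635244, minus strand): CTTCCTTTCCagcctccgcc
Rps18 (chr17:33955646-33955665, minus strand): CTCTCTTCCacaggaggcct
The efficiency change of Gas5 was -2.24, against -0.06 for Rpl15, 0.40 for Rpl35, 0.67 for Rps10 and 0.08 for Rps18, and the 4 ribosomal protein genes did not pass the test (adjusted p between 0.528 and 0.981). A start with C followed by at least 4 more pyrimidines was looked for on the gene's strand only, at any annotated start of a gene. It was found for 813 of 27025 genes with an annotated start (3.01%) and for 125 of the 4622 tested genes with a sequence (2.70%). It was found for 6 of 32 large-subunit genes with a sequence (18.8%) and for 6 of 21 small-subunit genes (28.6%). The 125 tested genes with the run had a median efficiency change of 0.00, an RNA change of 0.18 and a footprint change of 0.20, and the 4497 without it 0.01, -0.02 and -0.02. Most ribosomal protein genes with a sequence did not show the run at an annotated start, so the group without it holds known TOP messages. These medians therefore do not compare TOP messages with the rest.

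Most messages of ribosomal proteins rose in RNA and in footprints. Of 41 large-subunit genes tested, 31 rose in RNA (median 1.08) and 38 in footprints (median 1.20), and of 28 small-subunit genes 22 rose in RNA (median 1.22) and 27 in footprints (median 1.28). In efficiency 0 of the genes of either subunit were called with edgeR, DESeq2 or limma, and 2 large-subunit and 3 small-subunit genes were higher at an unadjusted p below 0.05. Rpl5, which with the 5S RNA can hold Mdm2, had RNA of 980 and 994 CPM with Eif3m siRNA and 331 and 446 CPM in controls, and footprints of 223 and 205 CPM with Eif3m siRNA and 74.7 and 105 CPM in controls. Its ratios were 0.228 and 0.207 with Eif3m siRNA and 0.227 and 0.237 in controls, which overlap, and its efficiency change was -0.10 (SE 0.28, adjusted p = 0.961). Rps4x had ratios of 0.510 and 0.434 with Eif3m siRNA and 0.552 and 0.526 in controls and an efficiency change of -0.19 (adjusted p = 0.909). The median efficiency change was 0.07 for the large and 0.11 for the small subunit. Set to the mean of the 4 animals, the median log2 ratio of the large-subunit genes was 0.25 and -0.17 in the Eif3m siRNA animals and -0.32 and 0.25 in the control animals, so the animals of a group differed by more than the groups did. Without control replicate 2 the median was 0.38 for the large and 0.41 for the small subunit, and without control replicate 1 it was -0.13 for the large and -0.04 for the small subunit.

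Other translation factors also changed in RNA and footprints, with no call in efficiency. Of 14 eIF3 subunits, all tested, 4 rose and 1 (Eif3m) fell in RNA, 6 rose and 1 fell in footprints, and 0 were called in efficiency with edgeR, DESeq2 or limma. The 1 subunit past an unadjusted p of 0.05, Eif3i, had ratios of 1.47 and 1.37 with Eif3m siRNA and 0.628 and 1.1 in controls (efficiency change 0.76, adjusted p = 0.478). Eif3c, a core subunit, had an RNA change of 0.88 and a footprint change of 0.79, both called, and an efficiency change of -0.08. Of 32 initiation factors outside eIF3, 8 rose in RNA, 12 rose in footprints and 0 were called in efficiency (4 lower at an unadjusted p below 0.05). Eif4g2, which encodes the initiation factor DAP5, rose by 1.38 in RNA and 1.56 in footprints at an efficiency change of 0.17. Of 78 ribosome biogenesis factors, 24 rose in RNA and 36 in footprints, with a median efficiency change of -0.02 and 0 called with edgeR, DESeq2 or limma (4 higher and 3 lower at an unadjusted p below 0.05).

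The elongation factors and other TOP messages included Pabpc1 as their only efficiency call among 18 tested. Their median efficiency change was -0.36, with RNA up by a median of 0.81 (11 of 18 rose) and footprints by 0.43 (8 rose and Pabpc1 fell). Eef1b2, an elongation factor subunit chosen after its values were seen, had ratios of 0.789 and 0.688 with Eif3m siRNA and 0.854 and 1.45 in controls, and a change of -0.62 that did not pass (adjusted p = 0.589). The median was -0.07 without control replicate 2, -0.16 without Eif3m replicate 2 and -0.17 with library totals alone.

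**Figure D2:**
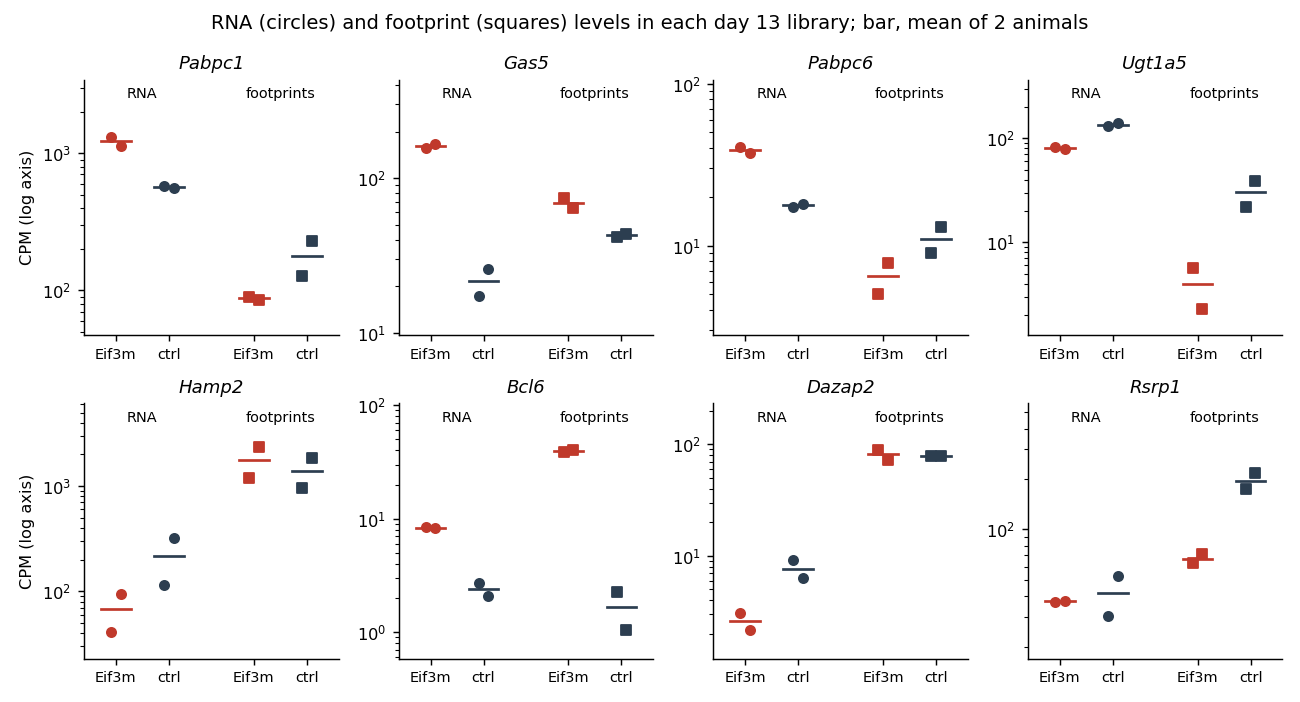
RNA (circles) and footprint (squares) level of 8 called genes in each day 13 library, in CPM on a log axis; bars are means of the 2 animals. Pabpc1 is higher in RNA and lower in footprints with Eif3m siRNA, Gas5 and Bcl6 are higher in both, and Dazap2 is lower in RNA at nearly equal footprints.

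The remaining falls in efficiency lay in footprints more than in RNA. Ugt1a5 belongs to the UDP-glucuronosyltransferases, which conjugate bilirubin and drugs. Its footprints were 5.6 and 2.30 CPM with Eif3m siRNA and 22.1 and 39.2 CPM in controls, and its RNA was 82.9 and 78.7 CPM with Eif3m siRNA and 131 and 141 CPM in controls, with no overlap in either assay. Its ratio was 0.0731 and 0.0354 with Eif3m siRNA and 0.172 and 0.280 in controls, and its efficiency fell by 2.46 (SE 0.42, adjusted p = 0.000997), with 10 and 17 footprint counts behind the Eif3m values. Without Eif3m replicate 2 the change was -1.70 and did not pass. Ugt1a2 (-2.53, adjusted p = 0.020) is spliced, as the genes of this locus are known to be, to the same last exons as Ugt1a5, so the 2 calls may rest on common reads. Footprints of both met the limit only through the control livers, with means of 3.95 CPM with Eif3m siRNA and 30.6 CPM in controls for Ugt1a5 and of 1.1 CPM with Eif3m siRNA and 9.44 CPM in controls for Ugt1a2, so a difference was built into their selection. It did not pass without Eif3m replicate 1 (-2.48) or Eif3m replicate 2 (-2.37). Rsrp1 had RNA of 36.9 and 37.6 CPM with Eif3m siRNA and 30.4 and 53 CPM in controls, which overlap, but footprints of 62.7 and 71.2 CPM with Eif3m siRNA and 174 and 217 CPM in controls. Its efficiency fell by 1.42 (SE 0.30, adjusted p = 0.020), but did not pass without Eif3m replicate 1 (-1.25) or Eif3m replicate 2 (-1.49). Mup10, of the major urinary proteins, was called at -1.96 (adjusted p = 0.0286), but its footprints were 6.72 and 4.87 CPM with Eif3m siRNA and 41.9 and 6.27 CPM in controls, a difference carried by 1 control. Without that control, replicate 1, the change was -0.83 and did not pass, and it also did not pass without Eif3m replicate 1 (-1.77) or Eif3m replicate 2 (-1.98). Mup10 and the gene model Gm21320 differed by at most 1.40% in any library and are best read as a single observation.

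Of the 15 called features, 4 had no proper symbol and are named here after their values were seen: Gm21320, LOC102641328 and LOC105245868 were lower, and the pseudogene Serpina4-ps1 was higher. The LOC pair differed by at most 7.72% in any library and is read likewise. Below the threshold, Ptp4a2, which encodes a protein tyrosine phosphatase, had ratios of 0.0416 and 0.0287 with Eif3m siRNA and 0.276 and 0.0718 in controls (-2.53, SE 0.56, adjusted p = 0.0528), and Ebag9 had ratios of 0.234 and 0.206 with Eif3m siRNA and 0.648 and 0.778 in controls (-1.83, adjusted p = 0.0700). Neither passed here, but Ptp4a2 passed in 7 of the 11 alternatives with an adjusted p and Ebag9 in 5 of 12. Footprints of both met the limit only through the control livers, so a difference was built into their selection. They were 3.36 and 1.62 CPM with Eif3m siRNA and 17.0 and 5.22 CPM in controls for Ptp4a2. For Ebag9 they were 4.48 and 5.01 CPM with Eif3m siRNA and 8.48 and 11.5 CPM in controls. Without control replicate 1 the change of Ptp4a2 was -1.34 (adjusted p = 0.560), and without control replicate 2 it was -3.37 (adjusted p = 8.92e-09).

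Hamp2, a relative of the iron hormone hepcidin, had the rise with the smallest p. Its RNA was 41.1 and 94.8 CPM with Eif3m siRNA and 115 and 323 CPM in controls, and its footprints were 1197 and 2346 CPM with Eif3m siRNA and 967 and 1841 CPM in controls. Replicate 2 was the higher animal of each group in both assays, and the groups overlapped in footprints; neither assay alone passed (RNA -1.70, adjusted p = 0.352; footprints 0.34, adjusted p = 0.729). The ratio was 28.8 and 24.6 in Eif3m siRNA livers and 8.36 and 5.70 in control livers, and efficiency rose by 1.96 (SE 0.28, adjusted p = 2.72e-05). The call held in 11 of 14 alternatives and without each animal, but not when the libraries of an animal were left unpaired (adjusted p = 0.915). It was lost in all 8 unpaired fits that left out a single library, at changes from 1.12 to 2.76 and adjusted p from 0.630 to 0.999.

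Bcl6, a transcriptional repressor, was higher in RNA and far higher in footprints. Its RNA was 8.40 and 8.23 CPM with Eif3m siRNA and 2.72 and 2.08 CPM in controls, and its footprints were 38.6 and 39.9 CPM with Eif3m siRNA and 2.26 and 1.04 CPM in controls. It met the 5 CPM limit in both assays only through the Eif3m siRNA livers, where it is high, so a difference was built into its selection. The control footprints were 4 and 2 counts, so the size of the change is poorly fixed. The ratio was 4.4 and 4.63 in Eif3m siRNA livers and 0.858 and 0.60 in control livers. RNA rose by 1.79 (adjusted p = 0.00207), footprints by 4.57 (adjusted p = 6.54e-06) and efficiency by 2.79 (SE 0.58, adjusted p = 0.020). Without Eif3m replicate 2 its change of 2.76 did not pass. Dazap2 had RNA of 3.08 and 2.15 CPM with Eif3m siRNA and 9.12 and 6.27 CPM in controls, and footprints of 89.6 and 72.8 CPM with Eif3m siRNA and 78.6 and 79.4 CPM in controls. Its RNA fell by 1.5 (adjusted p = 0.0131) at overlapping footprints, and its efficiency rose by 1.55 (SE 0.35, adjusted p = 0.0272), a call held in 5 of 12 alternatives. Its RNA met the limit only through the control livers (means of 2.61 CPM with Eif3m siRNA and 7.70 CPM in controls), so its difference too was built into its selection. It did not pass without control replicate 1 (1.26), Eif3m replicate 1 (1.79) or Eif3m replicate 2 (1.49).

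**Figure D3:**
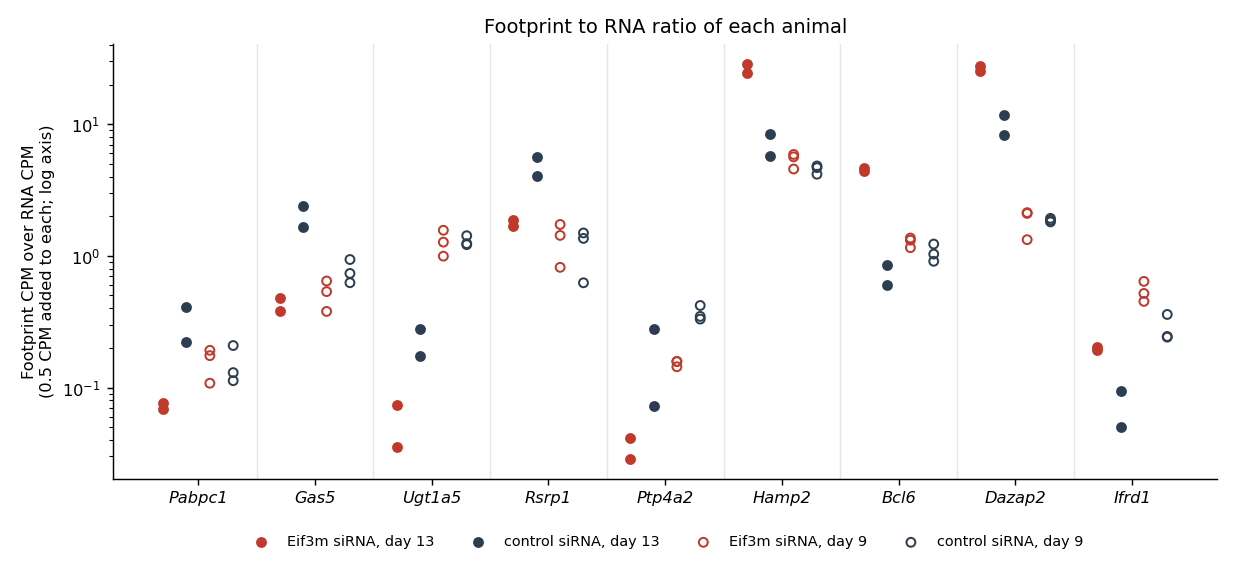
Footprint to RNA ratio of each animal for 9 named genes, on a log axis with 0.5 CPM added to both assays; filled symbols are day 13 and open symbols day 9, with Eif3m siRNA left of control in each day. The filled symbols of the 2 siRNAs do not overlap for any of these genes, and the open symbols overlap for Pabpc1, Rsrp1, Ugt1a5, Hamp2 and Dazap2, among others.

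The next largest rises, named by smallest p with non-overlapping ratios, did not pass. They were Hes1, a Notch target (1.53, adjusted p = 0.108), Flt4, the receptor VEGFR3 (1.48, adjusted p = 0.112), the semaphorin Sema4g (1.27, adjusted p = 0.141), Gdf2, which encodes BMP9 (1.6, adjusted p = 0.206), Tmem205 (1.17, adjusted p = 0.206), and Sin3b, a corepressor scaffold (1.21, adjusted p = 0.207). RNA of Flt4, Gdf2 and Sin3b met the limit only through the control livers, so a difference was built into their selection. With Eif3m siRNA it was 2.51 and 4.11 CPM for Flt4, 3.13 and 1.25 CPM for Gdf2 and 3.45 and 4.11 CPM for Sin3b. In controls it was 5.92 and 7.62 CPM, 11.2 and 5.42 CPM, and 9.24 and 7.54 CPM. Ifrd1, from the list of mRNAs with known translational control elements, had a change of 1.83 (adjusted p = 0.207). Ifrd1 had RNA of 271 and 249 CPM with Eif3m siRNA and 28.9 and 40.8 CPM in controls, and footprints of 54.3 and 47.5 CPM with Eif3m siRNA and 2.26 and 1.57 CPM in controls. RNA (2.90) and footprints (4.69) rose, each without overlap, and the ratios were 0.202 and 0.193 with Eif3m siRNA and 0.0940 and 0.0501 in controls. Footprints of Ifrd1 met the limit only through the Eif3m siRNA livers, with 4 and 3 counts in controls, so a difference was built into its selection too. In Sema4g the ratio difference lay in RNA, which fell by 1.85 (adjusted p = 1.48e-05), while footprints fell by 0.59 (adjusted p = 0.0372).

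Genes of liver sinusoidal endothelial cells, which line the hepatic capillaries, had the highest median efficiency change among lists with more than 5 tested members. Of 16 tested, 15 had a positive change with a median of 0.66, beside 51.3% positive and a median of 0.01 over all genes. In 11 of the 16 both Eif3m siRNA animals had ratios above both controls, and in 0 below, where over all genes 18.1% lay above and 19.6% below. With edgeR, DESeq2 and limma 0 of the 16 passed after adjustment, and 6 were higher at an unadjusted p below 0.05; with library totals alone 3 passed. Cdh5, the endothelial cadherin, had RNA of 11.4 and 9.66 CPM with Eif3m siRNA and 24.5 and 32.8 CPM in controls, and footprints of 59.4 and 52.3 CPM with Eif3m siRNA and 70.1 and 76.8 CPM in controls. Its ratio was 5.04 and 5.19 in Eif3m siRNA livers and 2.82 and 2.32 in control livers (1.04, SE 0.31, adjusted p = 0.207). Clec4g, a sinusoidal lectin, had ratios of 5.23 and 4.35 with Eif3m siRNA and 2.18 and 2.56 in controls (1.04, adjusted p = 0.207), and Mrc1, the mannose receptor, had overlapping ratios of 1.1 and 0.977 with Eif3m siRNA and 1.22 and 0.936 in controls. Cdh5 and Clec4g were chosen after their values were seen.

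**Figure D4:**
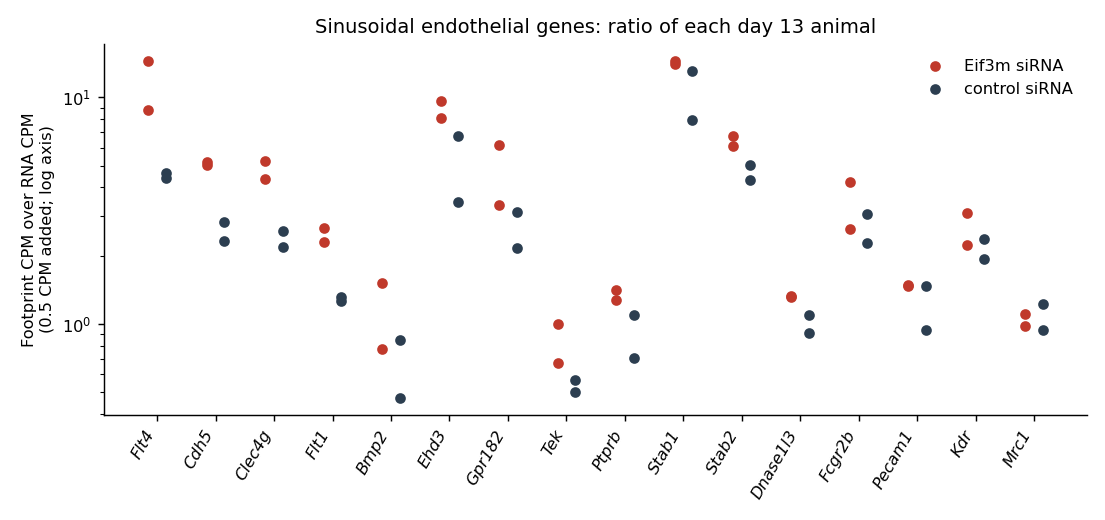
Footprint to RNA ratio of each day 13 animal for the 16 tested sinusoidal endothelial genes, on a log axis with 0.5 CPM added; Eif3m siRNA is left of control. The Eif3m points lie above both control points in 11 genes, and overlap with them in the other 5, Mrc1 among them.

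In these endothelial genes the median RNA change was -0.48 (2 of 16 fell) and the median footprint change 0.14 (0 called with edgeR; 8 rose with library totals alone). The 5 endothelial markers, all present in each library, summed to 57.7 and 54.7 CPM of RNA in Eif3m siRNA livers and 95.1 and 95.6 CPM in control livers, and to 399 and 354 CPM of footprints in Eif3m siRNA livers and 419 and 388 CPM in control livers. The median efficiency change of the list lay between 0.54 and 0.83 without 1 animal or library and was 0.41 among genes of at least 20 CPM in both assays. At day 9, in other animals and with another RNA kit, it was -0.05. Kupffer and macrophage genes had a median of 0.35, with 8 of 13 ratios above both controls and 0 below (18.1% and 19.6% over all genes). Their RNA fell for 10 of 13 (median -1.05) and their footprints for 8 (median -0.70). Of the 13, 0 were called in efficiency with edgeR, DESeq2 or limma (2 higher at an unadjusted p below 0.05; 1 passed with library totals alone), and Clec4f, a Kupffer cell lectin, had RNA of 20.3 and 18.6 CPM with Eif3m siRNA and 60.5 and 109 CPM in controls. Without control RNA replicate 2 their median was 0.02. The 5 tested lymphocyte and erythroid genes had a median of 0.67, with 2 higher at an unadjusted p below 0.05 and 0 called. Erythroid markers summed to 135 and 133 CPM of RNA with Eif3m siRNA and 1066 and 313 CPM in controls, and cholangiocyte and lymphocyte markers were at or below 4.36 CPM of RNA in every library. The part of these shifts in the efficiency values was not tested.

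**Figure D5:**
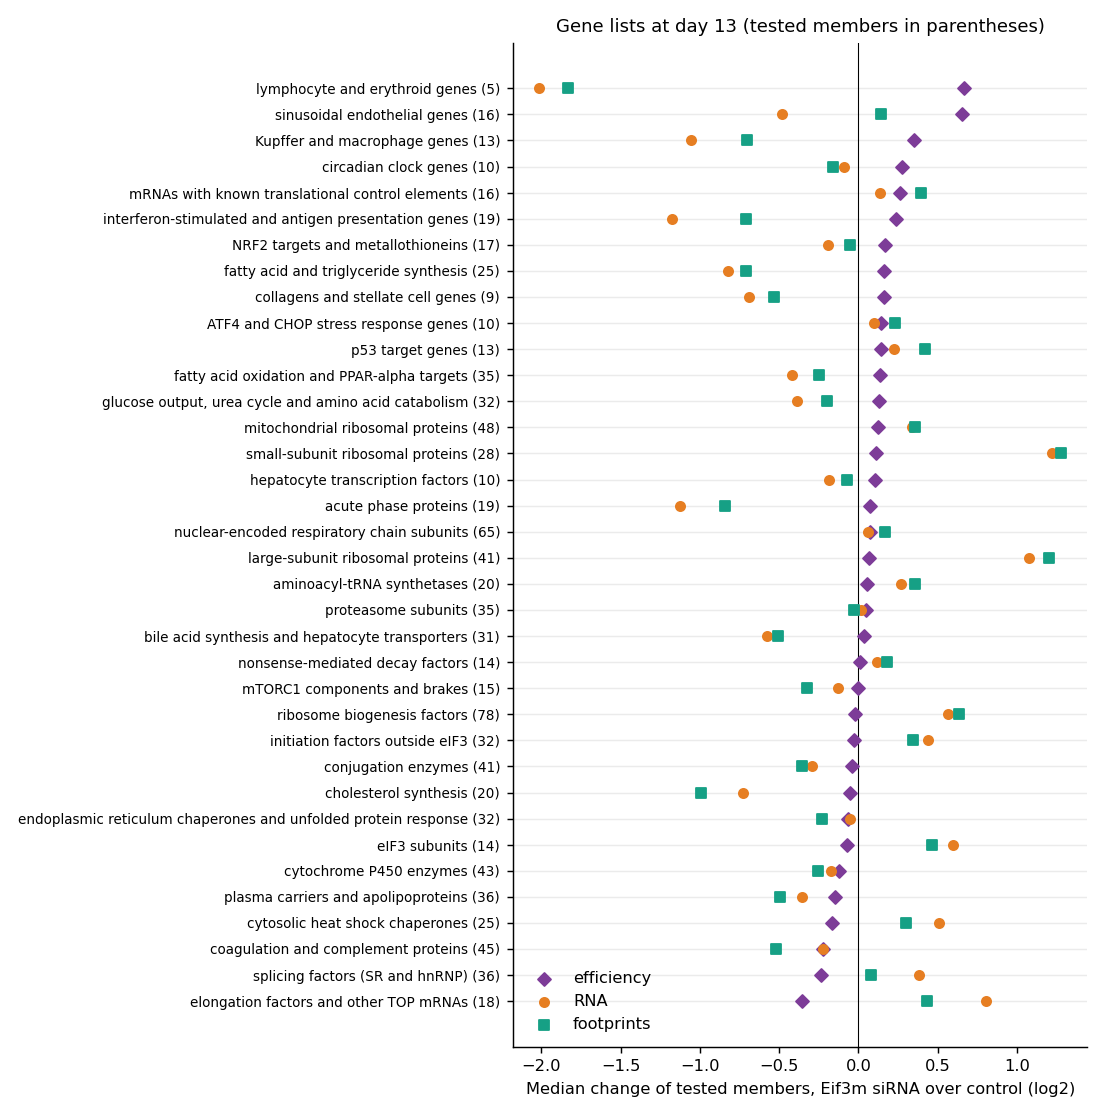
Median log2 change of the tested members of each gene list with at least 5 of them, Eif3m siRNA over control at day 13, for efficiency (diamonds), RNA (circles) and footprints (squares). Efficiency medians lie between -0.36 and 0.67 while RNA medians span -2.02 to 1.22; RNA and footprints lie on the same side of 0 in most lists.

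Among secreted and metabolic liver products, falls outnumbered rises in both assays in the main fits. With library totals alone, 4 coagulation and complement genes rose and 4 fell in RNA, and 7 cytochrome P450 genes rose and 7 fell in footprints. Under that scaling falls still outnumbered rises in both assays for plasma carriers and apolipoproteins, acute phase genes and conjugation enzymes. Of 45 coagulation and complement genes, 6 fell and 3 rose in RNA, and 27 fell and 2 rose in footprints. In efficiency 0 of them were called with edgeR, DESeq2 or limma (6 lower at an unadjusted p below 0.05). Their median efficiency change was -0.23, and 26 had ratios below both controls, beside 19.6% of all tested genes. With library totals alone that median was -0.04. Fga, the fibrinogen alpha chain, had footprints of 4021 and 3471 CPM with Eif3m siRNA and 8290 and 6584 CPM in controls and ratios of 0.949 and 1.06 with Eif3m siRNA and 1.58 and 1.21 in controls (-0.47, adjusted p = 0.683). Of 36 plasma carriers and apolipoproteins 10 fell and 3 rose in RNA, 19 fell and 3 rose in footprints, and 0 were called in efficiency with the same tools (1 higher and 5 lower at an unadjusted p below 0.05). Albumin fell by 0.97 in footprints at ratios of 0.745 and 0.784 with Eif3m siRNA and 0.891 and 0.982 in controls (-0.29, adjusted p = 0.821). Of 19 acute phase genes 6 fell and 1 rose in RNA, 11 fell and 1 rose in footprints, and Hamp2 was the only efficiency call. Among 41 conjugation enzymes Ugt1a5 was the only efficiency call, and among 43 cytochrome P450 genes there was none (3 lower at an unadjusted p below 0.05).

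Some genes of lipid synthesis fell in each assay and none rose. Of 25 fatty acid and triglyceride synthesis genes 14 fell in RNA and 13 in footprints (efficiency median 0.16), and of 20 cholesterol synthesis genes 7 and 8 fell (efficiency median -0.05). Scd1, the stearoyl-CoA desaturase, fell by 1.59 in RNA and 1.82 in footprints at overlapping ratios. Of 35 fatty acid oxidation genes 11 fell in each assay and 1 rose in RNA (efficiency median 0.14), and of 31 genes of bile acid synthesis and hepatocyte transport 12 fell in RNA, and 13 fell and 2 rose in footprints (0.03). With library totals alone, 8 fatty acid oxidation genes rose and 6 fell in footprints, and 1 rose and 10 fell in RNA. None of the genes of these lipid and bile acid lists was called in efficiency with edgeR, DESeq2 or limma; at an unadjusted p below 0.05, 1 gene of fatty acid synthesis and 4 of oxidation were higher, and 3 of cholesterol synthesis and 3 of the bile acid list were lower. Nuclear-encoded respiratory chain subunits (65 tested, median 0.08), mitochondrial ribosomal proteins (48, 0.12), proteasome subunits (35, 0.05), and genes of the urea cycle, glucose output and amino acid catabolism (32, 0.13) also held no efficiency call by these tools. At an unadjusted p below 0.05, 3 respiratory chain genes were higher and 1 lower, 3 mitochondrial ribosomal genes and 1 proteasome gene were lower, and 2 genes of the urea cycle list were higher.

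Lists tied to stress and regulation held no efficiency call with edgeR, DESeq2 or limma. Medians were 0.14 for 10 ATF4 and CHOP response genes, 0.14 for 13 p53 targets, -0.07 for 32 endoplasmic reticulum chaperone and unfolded protein response genes, 0.17 for 17 NRF2 targets and metallothioneins, and 0.24 for 19 interferon and antigen presentation genes. They were -0.17 for 25 cytosolic heat shock chaperones and -0.24 for 36 splicing factors. Of the splicing factors, 31 had a negative change and 15 had ratios below both controls. Over all tested genes 51.3% had a positive change and 19.6% had ratios below both controls. With library totals alone the medians of the heat shock chaperones and splicing factors were 0.01 and -0.05. At an unadjusted p below 0.05, counts of higher and lower genes were 2 and 0 for ATF4 and CHOP, 1 and 1 for p53, 0 and 1 for the chaperones of the endoplasmic reticulum, 2 and 0 for NRF2, 1 and 0 for interferon, 0 and 2 for heat shock and 1 and 4 for splicing. Ccng1, a p53 target, had RNA of 156 and 204 CPM with Eif3m siRNA and 58.4 and 99.4 CPM in controls, a rise of 1.19, at ratios of 0.0389 and 0.0428 with Eif3m siRNA and 0.0949 and 0.0834 in controls (-1.07, adjusted p = 0.471). Of 16 mRNAs with known translational control elements, 14 had positive changes (median 0.27) and 4 were higher and 1 lower at an unadjusted p below 0.05. Among these, Atf5, whose upstream reading frames are a textbook case of regulated initiation and which was chosen after its values were seen, had footprints of 575 and 692 CPM with Eif3m siRNA and 92.2 and 82.5 CPM in controls. Its RNA rose by 1.75 and its footprints by 2.86, with ratios of 31.2 and 33.2 with Eif3m siRNA and 9.80 and 29.3 in controls (0.88, adjusted p = 0.563). The remaining lists gave medians of 0.01 for 14 nonsense-mediated decay factors, 0.06 for 20 aminoacyl-tRNA synthetases, -0.04 for conjugation enzymes, 0.10 for 10 hepatocyte transcription factors, 0.16 for 9 collagen and stellate cell genes, 0.27 for 10 clock genes, -0.16 for 4 cell cycle genes and -0.0025 for 15 mTORC1 genes. At an unadjusted p below 0.05, 4 conjugation enzymes, 1 clock gene and 1 mTORC1 gene were higher. At the same limit 4 conjugation enzymes, 1 clock gene, 1 mTORC1 gene and 1 hepatocyte transcription factor were lower. The lowest change was -0.81 in both the clock and the hepatocyte transcription factor list, so these may be the same gene.

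At day 9, in 6 other animals, efficiency was called for 6 of 6004 genes that met the limit on both days (0.0999%), and 0 of them were called at day 13. Ferritin light chain Ftl1 (1.24, adjusted p = 0.000743) and heavy chain Fth1 (0.91, adjusted p = 0.00650), iron stores whose mRNAs carry iron-responsive elements, rose at day 9, and LOC100862446 rose with values close to those of Ftl1. Ptp4a2 (-1.30), the ubiquitin ligase Mib1 (-1.19) and the bile salt export pump Abcb11 (-0.82) fell at day 9; Ftl1, Mib1, Abcb11 and LOC100862446 were chosen after their values were seen. At day 13 the changes were 0.85 for Ftl1, 0.22 for Fth1, -1.02 for Mib1 and -0.68 for Abcb11, none of which passed. Of the day 13 calls, Pabpc1 had a day 9 change of 0.08, with day 9 ratios of 0.192, 0.108 and 0.175 with Eif3m siRNA and 0.113, 0.130 and 0.208 in controls, and Gas5 one of -0.57 (adjusted p = 0.257). The test of the difference between the days, over all 20 libraries, passed for 1 gene of 6004 (0.0167%): Hamp2, higher at day 13 by 1.73 (SE 0.26, adjusted p = 0.0133), with day 9 ratios of 5.89, 5.64 and 4.56 with Eif3m siRNA and 4.68, 4.82 and 4.17 in controls. The count was 112 without day 13 control replicate 2, 3 without day 13 control replicate 1, 2 without day 13 Eif3m replicate 1, day 9 Eif3m replicate 2 or day 9 control replicate 3, and 0 without day 13 Eif3m replicate 2, day 9 Eif3m replicate 3 or day 9 control replicate 1 or 2. The day 9 count was 3 without Eif3m replicate 2 or 3 and 2 without control replicate 3. For Pabpc1 the difference was -2.16 (adjusted p = 0.0559) and for Ugt1a5 -2.52 (adjusted p = 0.0559), which did not pass.

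RNA libraries of day 13 were made with NeoPrep and those of day 9 with KAPA mRNA capture, so kit and day are confounded and their parts cannot be told apart, while footprints used ART-seq on both days. Within an animal, Pearson r between log2 RNA and log2 footprints over the genes was 0.586 and 0.582 in the Eif3m siRNA animals of day 13 and 0.709 and 0.618 in the control animals, and 0.868 to 0.892 at day 9; genes are not independent replicates. The ratios of the 2 control animals of day 13 differed by more than 2-fold in 8.68% of genes and those of the Eif3m siRNA animals in 3.40%. In 636 genes control RNA was at least 4-fold lower at day 13 than at day 9; 2 of them rose and 0 fell in efficiency, and their median was 0.28. In 163 genes it was at least 4-fold higher; 0 rose and 5 fell, and their median was -0.19. Bcl6 and Dazap2 belong to the lower set, Ugt1a5, Ugt1a2, Mup10 and Pabpc6 had control RNA at least 4-fold higher at day 13, and Pabpc1, Gas5, Hamp2 and Rsrp1 were within 4-fold. Mean control RNA at days 9 and 13 was 5.23 and 6160 CPM for Mup10, 2.67 and 126 CPM for Ugt1a2, and 0.238 and 17.7 CPM for Pabpc6. Their mean control footprints were 6.98 and 24.1 CPM, 11.2 and 9.44 CPM, and 3.07 and 11.1 CPM. The part of this shift in the result was not tested; with genes within 4-fold alone, 6 rose and 14 fell.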

How the data were processed

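The authors deposited a table of expected counts per gene symbol, not normalized, for RNA and ribosome footprint libraries; 44.3% of its nonzero values were not whole and were rounded here. Cutadapt, Bowtie and Bowtie2 are named in the submitters' processing notes; their versions, the build and how reads were assigned to genes were not given in the sources used here. Nothing says that replicates were separate experiments beyond the animal IDs in the labels, so p-values measure the spread between these animals.

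Counts were scaled by TMM within each assay. A mean of at least 5 CPM in both assays was required. The efficiency change was the assay by siRNA term of an edgeR 4.0.16 quasi-likelihood fit (robust, R 4.3.3) with a term for each animal, whose RNA and footprint libraries share an ID in the labels; two-sided p-values were adjusted over all genes tested by Benjamini-Hochberg, with a threshold of 0.05. RNA and footprints were fitted separately. Ratios per animal used CPM plus 0.5. An exact test of 2 against 2 animals cannot go below p = 0.333, so none is given. The fits were also run on simulated counts whose animal effect was the same in both assays. That run therefore cannot show how well the paired fit performs on these data. Alternatives were other scalings, filters, DESeq2 1.42.0, limma 3.58.1, unpaired libraries, all 20 libraries and leaving out each animal or library. Depth of the day 13 libraries, 1.64 to 26.4 M counts, limits precision, and control footprint counts of a few reads leave ratios uncertain.

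Named genes were all eIF3 subunits tested, up to 10 rises and up to 10 falls by size among called genes with non-overlapping ratios (filled by smallest p), and up to 3 called or else the 2 most abundant members of each list. Other genes are said to be chosen after their values were seen, apart from the ribosomal protein genes whose starts are shown. Those were taken by run length, with genes on chr18 left out. Members and lists were chosen with earlier results of these data known. Some items that the rule names are not reported here.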

Additional observations from a re-analysis of the deposited data

Results flagged for a closer look

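The efficiency effect of Eif3m siRNA on Hamp2 differed between the days by 1.73 on the log2 scale (day 13 minus day 9, SE 0.26, adjusted p = 0.0133 in edgeR's test of the difference over 6004 genes). At day 13 the ratios were 28.8 and 24.6 with Eif3m siRNA and 8.36 and 5.70 in controls. At day 9 they were 5.89, 5.64 and 4.56 with Eif3m siRNA and 4.68, 4.82 and 4.17 in controls. The Eif3m siRNA ratios of day 13 lay above every other ratio of both days. RNA kits differed between the days, and the part of the kit in this difference was not tested.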

How the results depend on the processing

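The count of genes higher in efficiency (4) became 44 with library totals alone, 1 with filterByExpr, 1 at 20 CPM, 7 with no filter beyond 1 count, 1 with DESeq2, 8 with limma and 2 CPM added, and 2 with all 20 libraries; the cause was not tested. The count of genes lower (11) became 2 with filterByExpr, 4 at 20 CPM, 7 with DESeq2 and 5 with all 20 libraries. Calls numbered 484 in RNA and 868 in footprints at 20 CPM, where fewer genes were tested, 1903 in RNA with both days in the fit and 788 in footprints with DESeq2. Day 9 gave 37 with DESeq2, and the day difference 3 with DESeq2 size factors and 4 with DESeq2. Leaving out 1 animal or library gave 0 to 260 genes higher, 0 to 156 lower, 248 to 1737 RNA calls, 616 to 1367 footprint calls, 2 to 8 at day 9 and 0 to 112 for the day difference. For single genes named in the text, 200 values lost the call and 51 gained one, and no called value changed sign. All others kept their side of the threshold. Of these, 251 values of genes not called moved by at least the spread between animals of a group. The other 2184 stayed called, or stayed not called with a smaller move.

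Pairing mattered. With no replicate block, the libraries of an animal unpaired, 0 genes rose and 2 fell, and over all 20 libraries 0 and 3; the day difference then gave 0. With the replicate number as a replicate block, 5 rose and 12 fell in efficiency, and 726 RNA and 1391 footprint genes were called. Across siRNA groups the replicate numbers share only a number: same-numbered deviations correlated at -0.08 in RNA and 0.10 in footprints over genes. For pairing by animal, the difference between replicates 1 and 2 in RNA correlated weakly with that in footprints. The r was 0.173 for the Eif3m siRNA animals and 0.166 for the control animals over genes. Low footprint counts limit Bcl6, Ugt1a2 and Ugt1a5.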
